A study of Mus musculus with 2 samples.

Results

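The enzymes that make serine and pass its one-carbon unit to folate were compared in mouse CD4 T cells activated with OX40L-Tg antigen-presenting cells (APC) or with wild type (Wt) APC. The group was set by name as 9 genes, namely Phgdh, Psat1, Psph, Shmt1, Shmt2, Mthfd1, Mthfd1l, Mthfd2 and Tyms. Of these, 8 had a value from a probe set, the unit of measurement of the array, that carries a single gene symbol, among 17097 genes with such a value. All 8 were among the 10541 genes that reached, on at least 1 array, the median intensity of that array, a level called the floor here. Mthfd2 had no such probe set, because the 2 probe sets annotated with it also carry the symbol of Gsn, the actin-binding protein gelsolin, so it was not analysed here.

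The T cells were naive Foxp3-negative CD4 T cells sorted from 6-week-old C57/Bl6 mice with a Foxp3-eGFP reporter. They were activated for 48 hours with soluble antibody to CD3, part of the T cell receptor complex, after which a second sort took the living CD4 T cells. The APC were splenocytes depleted of CD3-positive cells, and 50 ug/ml of mitomycin C had been used to block their division. They came from OX40L-Tg or Wt mice. OX40L is the ligand of the T cell costimulatory receptor OX40. The sources used here give neither the promoter that drives the transgene nor the number of mice behind a sample. The series holds 1 array for OX40L-Tg APC and 1 array for Wt APC, so no value below has a replicate, an error or a test, and each difference describes these arrays only.

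Serine is made from a glycolytic intermediate by 3 enzymes in a row, in which Phgdh oxidises phosphoglycerate, Psat1 transfers an amino group from glutamate and Psph removes the phosphate. The Shmt enzymes split serine into glycine and a one-carbon unit on tetrahydrofolate, Shmt1 in the cytosol and Shmt2 in mitochondria. Mthfd2 and Mthfd1l carry that unit on to formate in mitochondria, Mthfd1 takes formate up again in the cytosol, and the unit then serves purine synthesis, methionine regeneration and, through Tyms, thymidylate synthesis. Activated T cells are known to raise this pathway when they begin to divide.

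Psat1 and Psph of serine synthesis and the mitochondrial Shmt2 had the largest differences of the 8 enzymes, and all of these read higher with OX40L-Tg APC. Psph was 1.47-fold higher, Shmt2 1.31-fold and Psat1 1.28-fold. Phgdh, Mthfd1 and Mthfd1l differed by 0.06 or less on the log2 scale in either direction. A difference of 1.5-fold was reached upward by 0 of the 8 enzymes, where 3.85% of the genes above the floor reached it, and downward by 0, where 3.36% did. At 1.2-fold, a size chosen after seeing the data, 3 of the 8 were higher with OX40L-Tg APC and 0 were lower, against 14.3% and 12.4% of the genes above the floor. The value with OX40L-Tg APC was the higher one for 7 of the 8 enzymes, against 54.0% of the genes above the floor. The median difference was 0.17 on the log2 scale over the 8 enzymes and 0.02 over all genes above the floor. In RNA of a sorted population, a larger share of a cell type cannot be told apart from more transcript per cell.

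**Figure D1:**
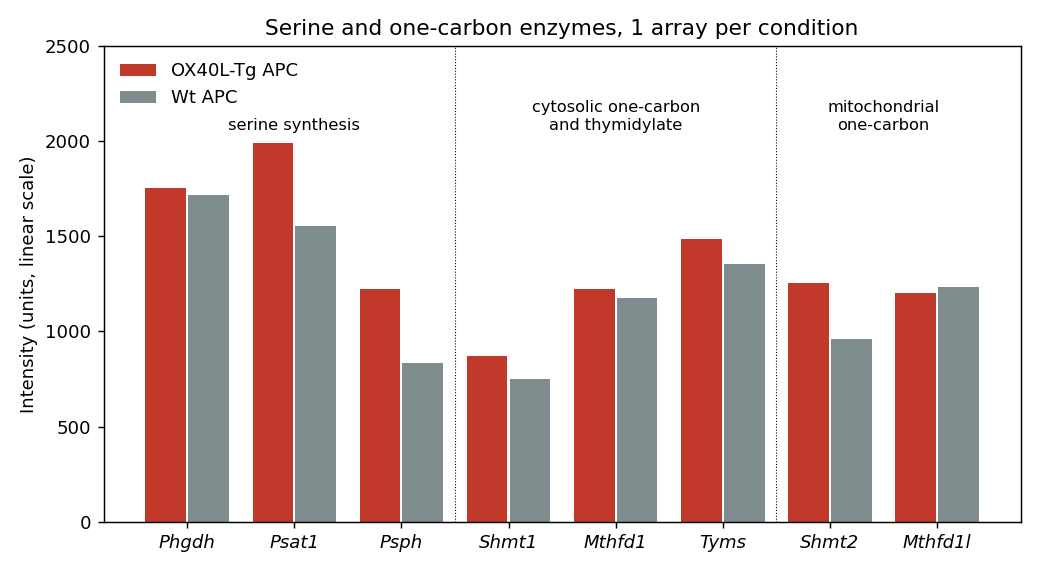
Intensity of the 8 enzymes (vertical axis, units on a linear scale) on the OX40L-Tg APC array and the Wt APC array, 1 bar per array and no replicates. Psat1, Psph and Shmt2 stand visibly higher with OX40L-Tg APC, whereas Phgdh, Mthfd1 and Mthfd1l are nearly level, and bars of different genes come from different probes and cannot be compared in height.

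The promoters of 5 enzymes are shown, namely those of the 3 with the largest differences, that of Phgdh, which stands ahead of Psat1 and Psph in serine synthesis but read nearly the same on both arrays, and that of Tyms, the only one of the enzymes with a motif match. Each runs from 250 bases before to 50 bases after a RefSeq transcript start in GRCm38.p6, 5′ to 3′ on the gene's strand, and capitals mark a match to CACGTG. Psat1 has 2 such starts, of which 1 is shown.
Psph, chr5:129787204-129787503, minus strand: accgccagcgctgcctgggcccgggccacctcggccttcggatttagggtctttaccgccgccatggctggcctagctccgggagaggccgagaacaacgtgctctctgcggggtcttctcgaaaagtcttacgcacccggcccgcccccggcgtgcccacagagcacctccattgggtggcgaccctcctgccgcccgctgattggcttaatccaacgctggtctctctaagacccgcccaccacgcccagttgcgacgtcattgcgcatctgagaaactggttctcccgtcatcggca
Psat1, chr19:15925010-15925309, minus strand: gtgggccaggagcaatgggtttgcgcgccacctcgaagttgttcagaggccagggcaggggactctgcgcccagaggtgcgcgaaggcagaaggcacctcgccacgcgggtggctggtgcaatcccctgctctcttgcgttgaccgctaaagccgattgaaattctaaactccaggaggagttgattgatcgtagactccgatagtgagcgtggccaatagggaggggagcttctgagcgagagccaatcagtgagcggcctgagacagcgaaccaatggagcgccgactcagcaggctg
Shmt2, chr10:127522395-127522694, minus strand: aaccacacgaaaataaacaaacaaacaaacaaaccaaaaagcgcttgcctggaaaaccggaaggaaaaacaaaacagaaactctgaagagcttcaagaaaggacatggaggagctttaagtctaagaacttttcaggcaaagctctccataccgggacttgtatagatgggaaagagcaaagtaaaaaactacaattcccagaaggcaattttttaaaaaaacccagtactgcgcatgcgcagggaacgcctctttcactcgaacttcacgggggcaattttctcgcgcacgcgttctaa
Phgdh, chr3:98339920-98340219, minus strand: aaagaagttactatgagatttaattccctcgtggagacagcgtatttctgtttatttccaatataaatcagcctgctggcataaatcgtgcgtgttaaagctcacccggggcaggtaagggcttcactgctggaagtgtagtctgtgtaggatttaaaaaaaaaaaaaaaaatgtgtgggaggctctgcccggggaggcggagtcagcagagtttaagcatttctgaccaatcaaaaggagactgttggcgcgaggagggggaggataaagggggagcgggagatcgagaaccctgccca
Tyms, chr5:30073576-30073875, minus strand: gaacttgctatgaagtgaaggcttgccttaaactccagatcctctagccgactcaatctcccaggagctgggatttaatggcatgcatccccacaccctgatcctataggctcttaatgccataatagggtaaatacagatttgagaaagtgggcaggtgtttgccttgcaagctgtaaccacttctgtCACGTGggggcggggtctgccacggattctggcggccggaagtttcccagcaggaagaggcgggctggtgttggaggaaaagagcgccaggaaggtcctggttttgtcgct

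Both strands of all 10 promoters of the 9 enzymes, Mthfd2 included, were searched for TGATGNAA, the core of the C/EBP-ATF response element that ATF4 can bind, and for CACGTG, an E-box that MYC and other factors can bind. The letters TGATGNAA were in 0 of the 10 windows, and they were in 3.97% of all 32851 promoters of the same length. CACGTG was in 1 of the 10 windows, that of Tyms at position -61 from the start, and in 7.15% of all promoters. Among the 17065 promoters of genes with a value, the shares were 2.75% for TGATGNAA and 8.69% for CACGTG. Windows as few as 10 cannot set such counts apart from these shares. With 0 matches to TGATGNAA, the 2 motifs could not overlap each other in these windows. The promoter of Shmt2 held 42.67% G and C bases and that of Phgdh 47.67%, against 65% for Psph.

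Within serine synthesis the difference was smallest for the enzyme that opens the pathway. Phgdh read 1753 units with OX40L-Tg APC, against 1715 units with Wt APC, a log2 difference of 0.03. Its other probe set gave 1342 units with OX40L-Tg APC and 1283 units with Wt APC, a difference of 0.06. Both Phgdh probe sets are marked by the manufacturer as matching more than 1 transcript, so their signal may not come from Phgdh alone.

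Psat1, the aminotransferase, read 1993 units with OX40L-Tg APC, against 1555 units with Wt APC, a log2 difference of 0.36. Psph, the phosphatase that releases serine, read 1222 units with OX40L-Tg APC, against 832 units with Wt APC, a difference of 0.55. Each of these rests on 1 probe set, so no other probe set of the gene bears on it. Of all genes above the floor, 95.8% had a lower difference than Psph and 90.9% a lower difference than Psat1, whereas 52.9% had a lower one than Phgdh.

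The enzymes of the mitochondrial arm did not differ by the same amount. Shmt2 read 1256 units with OX40L-Tg APC, against 961 units with Wt APC, a log2 difference of 0.39. Its other probe sets, both marked as matching more than 1 transcript, were far dimmer. They read 147 and 42.2 units with OX40L-Tg APC, against 113 and 32.4 units with Wt APC. The dimmest was just above the background level described below, 39.4 units for OX40L-Tg APC and 30.5 units for Wt APC. Their differences of 0.38 and 0.38 lay within 0.01 of the brightest one, so all 3 probe sets showed nearly the same ratio. The signal of the 2 dimmer ones may not come from Shmt2 alone. Mthfd1l, the mitochondrial synthetase that releases formate, read 1201 units with OX40L-Tg APC, against 1234 units with Wt APC. Its difference of -0.04 from 1 probe set was the only negative one among the 8 enzymes.

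In the cytosol, Shmt1 read 868 units with OX40L-Tg APC, against 750.1 units with Wt APC, a log2 difference of 0.21. All 4 of its probe sets were higher with OX40L-Tg APC, with differences between 0.16 and 0.31. Mthfd1, which joins formate to tetrahydrofolate and interconverts the products, read 1225 units with OX40L-Tg APC, against 1176 units with Wt APC, a difference of 0.06. Its other probe set gave 0.04.

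Tyms, thymidylate synthase, read 1488 units with OX40L-Tg APC, against 1355 units with Wt APC, a log2 difference of 0.14, in a probe set marked as shared. Its 5 probe sets did not all point the same way. One at 85.1 units with OX40L-Tg APC and 77.5 units with Wt APC gave 0.13, and another at 43.8 units with OX40L-Tg APC and 52.4 units with Wt APC gave -0.26. The remaining 2, between 8.01 and 8.42 units on the arrays, were below the background level, which was taken as the 95th percentile of 48 genes of other organs and came to 39.4 units for OX40L-Tg APC and 30.5 units for Wt APC. With the mean of all 5 probe sets in place of the brightest, Tyms differed by -0.01.

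Over the 8 enzymes, 17 of 19 probe sets were above background on at least 1 array, and 15 of these 17 were higher with OX40L-Tg APC. Probe sets of a gene share the RNA and the hybridisation and are not replicates of the condition. They give the only measure of technical scatter, which says nothing of the spread between cultures or mice. For 1034 genes with at least 2 probe sets of 300 units or more, the pooled SD of the log2 difference between probe sets of a gene was 0.08. The differences of Psph, Shmt2, Psat1 and Shmt1 were larger than that SD, as was that of Tyms in its brightest probe set. Those of Phgdh, Mthfd1 and Mthfd1l were smaller. Over 4195 genes with at least 2 probe sets above the floor, dim ones included, the pooled SD was 0.18. The Tyms difference of 0.14 was smaller than this wider SD, and the Shmt1 difference of 0.21 was little above it.

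**Figure D2:**
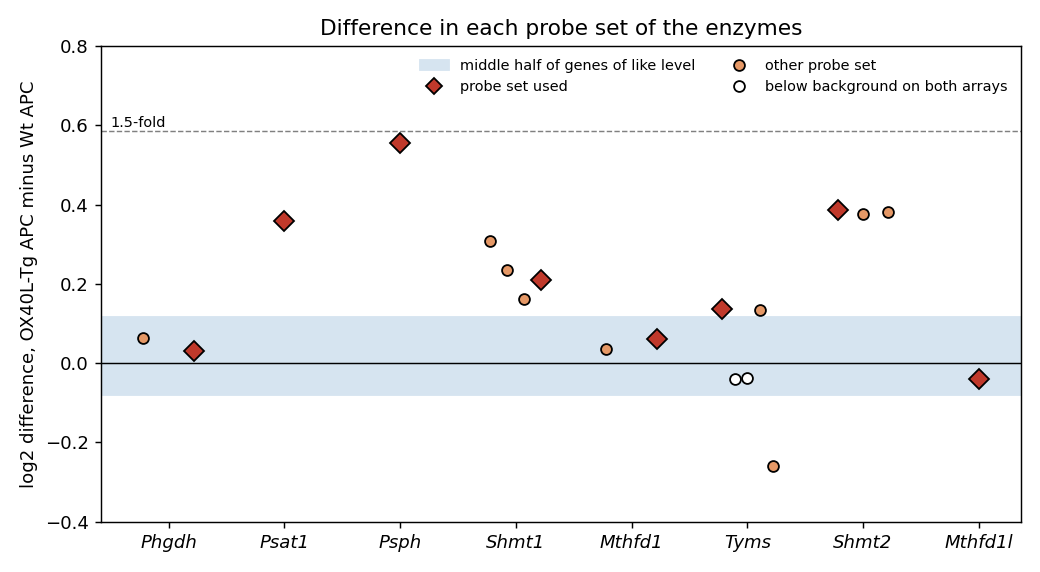
Log2 difference between OX40L-Tg APC and Wt APC (vertical axis) in each of the 19 probe sets of the 8 enzymes, with the brightest probe set of a gene as a diamond, the others as circles and those below background on both arrays as open circles. The band spans the quartiles, -0.08 to 0.12, of 1060 genes of like level, and the Shmt2 probe sets lie together near 0.38 while those of Tyms spread from -0.26 to 0.14.

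Genes as bright as these enzymes differed less between the arrays than genes in general. The mean levels of the 8 enzymes ran from 807 to 1760 units, and 1060 genes above the floor lay in that range. The quartiles of their differences were -0.08 and 0.12, with a median of 0.02. Psph, Shmt2, Psat1, Shmt1 and Tyms were above the upper quartile, and Mthfd1, Phgdh and Mthfd1l lay between the quartiles. A difference of 1.2-fold was reached upward by 8.30% of the 1060 genes and downward by 8.21%, against 3 and 0 of the 8 enzymes.

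The sorted cells were checked against markers of their label and of the cells they were cultured with. Beside each marker count below stands the share of all genes above the floor that were higher with OX40L-Tg APC, 54.0%. T cell markers were bright in both samples, and 10 of 11 read lower with OX40L-Tg APC, with a median difference of -0.23. Their summed intensity was 22339 units with OX40L-Tg APC and 25994 units with Wt APC. Cd3e read 912 units with OX40L-Tg APC and 1452 units with Wt APC, and Cd3g read 1651 units with OX40L-Tg APC and 2533 units with Wt APC. Cd4 read 1143 units with OX40L-Tg APC and 1410 units with Wt APC. Of 7 B cell markers above the floor, 6 were higher with OX40L-Tg APC, by a median of 0.44, with sums over the 9 markers with a value of 1512 units for OX40L-Tg APC and 982 units for Wt APC. Cd79b, a chain of the B cell receptor, read 313 units with OX40L-Tg APC and 166 units with Wt APC, and Fcer2a, which encodes CD23, read 520 units with OX40L-Tg APC and 259 units with Wt APC. Of 8 MHC class II genes above the floor, 7 were higher, by a median of 0.32, with sums over 9 genes of 3841 units for OX40L-Tg APC and 2923 units for Wt APC. Cd74, the invariant chain, read 1346 units with OX40L-Tg APC and 901 units with Wt APC. None of the 9 macrophage and monocyte markers with a value was above background.

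Dendritic cell markers were higher with OX40L-Tg APC in 4 of 5 above the floor, by a median of 0.19. The sums over 6 markers were 1433 units for OX40L-Tg APC and 1143 units for Wt APC. Of the 5, Itgax and Zbtb46 were below background on both arrays. The 3 above background were mixed, with Flt3 at -0.09, Fscn1 at 0.09 and Ccl22 at 0.56. Ccl22, a chemokine that activated T cells can also make, read 764 units with OX40L-Tg APC and 518 units with Wt APC. Both CD8 markers were higher, and Cd8b1 read 239 units with OX40L-Tg APC and 191 units with Wt APC, while Cd8a was below background on both arrays. The NK cell, erythroid and neutrophil lists were lower with OX40L-Tg APC. Klrd1, a receptor chain of NK cells and some T cells, read 19.7 units with OX40L-Tg APC and 78.7 units with Wt APC, and the other NK marker above the floor was below background. Hba-a1, an alpha globin gene, read 207 units with OX40L-Tg APC and 1161 units with Wt APC, and the other 2 erythroid markers were below background. Both neutrophil markers above the floor were lower with OX40L-Tg APC, and 1 of them, Elane, was above background on the Wt APC array, at 31.9 units. The extraction protocol in the labels names adipose tissue, and the adipocyte markers Adipoq, Fabp4 and Lep all read below the floor on both arrays. Most B cell and MHC class II markers above the floor, Cd8b1 and Ccl22 were thus higher on the same array as Psph, Psat1 and Shmt2. Most T cell markers, Klrd1, Hba-a1 and Elane were lower there. The part of any of them in the differences of the enzymes was not tested.

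ATF4 is a stress-induced transcription factor, and the serine synthesis genes, Shmt2 and Mthfd2 are among its known targets. A list of Atf4 and 22 of its other known targets, which holds none of the 9 enzymes, was read beside them. Of the 22 genes above the floor, 20 read higher with OX40L-Tg APC, where 54.0% of all genes above the floor did. Of these, 8 reached 1.5-fold and 0 genes reached it downward, against 3.85% and 3.36% of all genes above the floor. The median difference was 0.44. These are the values of a list already known to be higher in these data. Cth, which makes cysteine from cystathionine, read 166 units with OX40L-Tg APC and 32.8 units with Wt APC. Chac1, which degrades glutathione, read 180 units with OX40L-Tg APC and 42.2 units with Wt APC. Nupr1, a stress-induced chromatin protein, read 54.7 units with OX40L-Tg APC and 20.9 units, below background, with Wt APC.

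Atf4 itself, named after its value was seen, read 2750 units with OX40L-Tg APC and 2026 units with Wt APC, a difference of 0.44. Psph at 0.55 was the only one of the 8 enzymes above the median of the ATF4 list. Asns, which makes asparagine and was also named after its value was seen, differed by 1.03. The same B cell and MHC class II markers were higher on the OX40L-Tg APC array, and their part in the ATF4 list was not tested either.

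The transporters that bring in serine and glycine, read with the mitochondrial carriers, were mixed. Of 8 above the floor, 5 were higher with OX40L-Tg APC, where 54.0% of all genes above the floor were. A size of 1.2-fold was reached by 2 upward and by 1 downward, against 14.3% and 12.4% of all genes. The median was 0.12 and the differences ran from -0.33 to 0.30. Slc38a2, a neutral amino acid transporter, read 1313 units with OX40L-Tg APC and 1064 units with Wt APC, and Slc1a5, another, read 643 units with OX40L-Tg APC and 526 units with Wt APC. Sfxn3, a mitochondrial serine carrier, read 51.9 units with OX40L-Tg APC and 65.1 units with Wt APC.

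Genes that use serine elsewhere also went both ways. Of 8 above the floor, 5 were higher and 3 lower with OX40L-Tg APC, where 54.0% of all genes above the floor were higher. A size of 1.2-fold was reached by 3 upward and by 0 downward, against 14.3% and 12.4% of all genes above the floor. The median was 0.04. Serinc5, a membrane protein of the serine incorporator family, read 85.1 units with OX40L-Tg APC and 41.8 units with Wt APC. Sptlc2, a subunit of the enzyme that joins serine to palmitoyl-CoA for sphingolipids, differed by 0.39 and Serinc1 by 0.32. In the glycine list, Gldc, which breaks glycine down, was below the floor on both arrays, and Alas1, which uses glycine for haem, differed by 0.06.

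**Figure D3:**
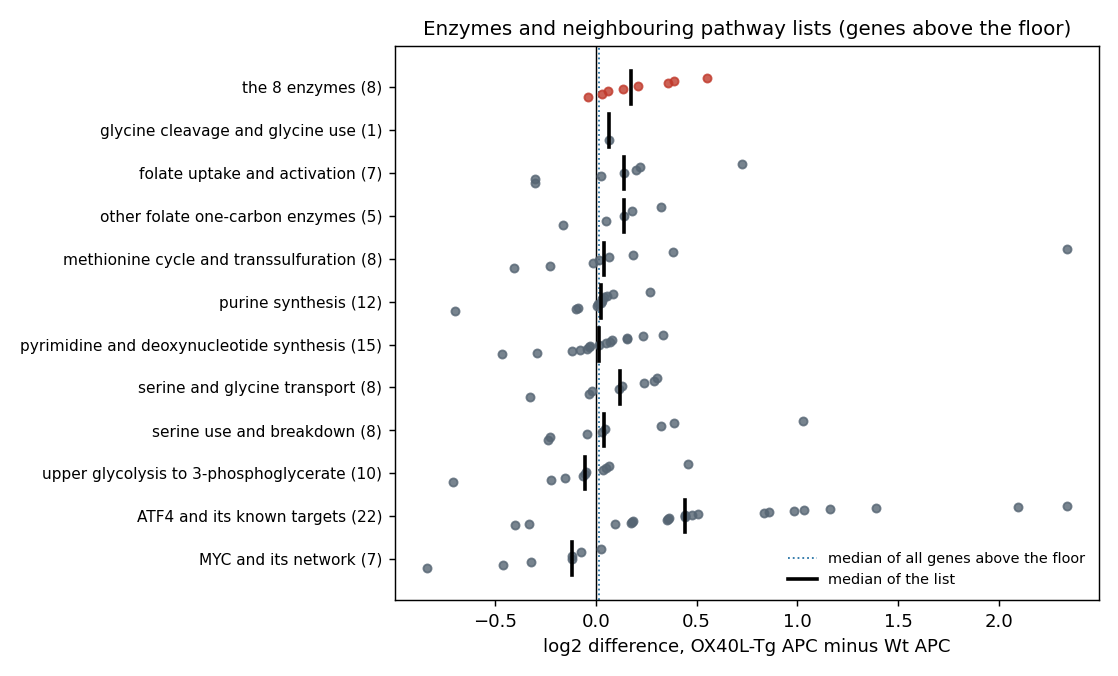
Log2 difference between OX40L-Tg APC and Wt APC (horizontal axis) for the 8 enzymes, in the top row, and for 11 lists of neighbouring pathways below it, with 1 point per gene above the floor, the number of genes in brackets and a bar at the median. The 8 enzymes have a median of 0.17, below the ATF4 list at 0.44. The nearest lists are folate uptake and activation and the other folate enzymes, both at 0.14, then serine and glycine transport at 0.12. The purine list is at 0.03.

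The genes that handle the folate cofactor went both ways as well. Of 7 folate uptake and activation genes above the floor, 5 were higher with OX40L-Tg APC, where 54.0% of all genes above the floor were. The median was 0.14. Ggh, which removes the glutamate tail of folates, was 1.65-fold higher, at 181 units with OX40L-Tg APC and 109 units with Wt APC. Mthfs, which returns a storage form of folate to the active pool, read 265 units with OX40L-Tg APC and 327 units with Wt APC. Izumo1r, a member of the folate receptor family known as a T cell surface protein rather than a folate carrier, read 436 units with OX40L-Tg APC and 537 units with Wt APC. Of the 5 other folate enzymes above the floor, 4 (Mthfd2l, Aldh1l2, Sardh and Dmgdh) were below background on both arrays. The other, Mtfmt, which formylates the mitochondrial initiator tRNA, read 271 units with OX40L-Tg APC and 246 units with Wt APC.

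Purine synthesis, which takes up one-carbon units, and the pyrimidine and deoxynucleotide list differed by little at the median. Tyms, through which the unit serves thymidylate synthesis, is among the enzymes and not on that list. Of 12 purine synthesis genes above the floor, 1 reached 1.2-fold upward and 1 downward, against 14.3% and 12.4% of all genes above the floor. The median was 0.03. The higher one was Prps1, which makes the activated ribose for nucleotides, at 0.27, and the lower one was Adssl1, below background on both arrays. Adss, on the branch to adenylate, differed by -0.10. Of 15 pyrimidine and deoxynucleotide genes, 1 reached 1.2-fold upward and 2 downward, against the same 14.3% and 12.4%. The median of 0.01 became -0.01 after a lowess correction and -0.003 after centring on the median of all genes. Dhodh, of pyrimidine synthesis, differed by 0.33, Samhd1, which degrades deoxynucleotides, by -0.46, and Dck, a salvage kinase, by -0.29.

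In the methionine cycle and transsulfuration, 5 of 8 genes above the floor were higher with OX40L-Tg APC, where 54.0% of all were. The median was 0.04. Cth, already given with the ATF4 list, had the largest difference. Ahcyl2, related to the enzyme that hydrolyses S-adenosylhomocysteine, differed by 0.38, and Mat2b, the regulatory subunit of methionine adenosyltransferase, by -0.41. Cbs, which joins serine to homocysteine ahead of Cth, was below the floor on both arrays.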

How the data were processed

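Total RNA was hybridised to 2 Affymetrix HT MG-430 PM arrays, 1 for each kind of APC. The authors deposited 1 linear intensity per probe set and array, computed with RMA according to the submitters' processing notes. The RMA version and the set of arrays it was run on are not given in the sources used here. RMA equalises the arrays, so it hides any change in the RNA content of a cell, and it compresses differences at low intensity. Of 45141 probe sets, 28898 carried 1 gene symbol in the platform annotation, 551 several and 15692 none there, and 28689 of the 28898 were found by Entrez number in RefSeq GRCm38.p6, which changed 0 symbols.

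Log2 was taken, and a gene took its probe set with the highest mean. The Wt APC value was subtracted from the OX40L-Tg APC value. The floor was 14.7 units on both arrays. No test is possible between single arrays, and the number of arrays limits the precision. The enzymes and lists were chosen with earlier results of these data known. Besides the enzymes, up to 3 genes of each list above the floor with the largest absolute difference, and markers of the cell types, were named. Comparisons of protein sequence that had been planned were not run. Promoters came from RefSeq tables and were found for all 9 enzymes. Calculations used Python 3.11.15, numpy 2.4.6, pandas 2.3.3 and statsmodels 0.14.6 (lowess, span 0.3), were tested on simulated arrays, and were repeated with other probe set rules, floors, scalings and fold sizes.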

Additional observations from a re-analysis of the deposited data

How the results depend on the processing

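The count of enzymes at least 1.5-fold higher was 0 with each other probe set rule, floor and scaling and at 2-fold. It was 3 at 1.2-fold, a size added after seeing the data. The count at least 1.5-fold lower was 0 throughout. A 2-fold size could not raise a count of 0, and all 8 enzymes lay above every floor, so those settings could not change the counts. The median difference ran from 0.14, with the mean of all probe sets, to 0.21, with probe sets marked as shared left out, which removes Phgdh. Psph ran from 0.53 to 0.55, Shmt2 from 0.37 to 0.39, Psat1 from 0.34 to 0.36 and Mthfd1l from -0.06 to -0.04. Psph, Psat1 and Mthfd1l each have 1 probe set, not marked as shared, so the other probe set rules could not move them. Tyms was the only enzyme to change sign, at -0.01 with the mean of its probe sets, 2 of which are below background. No paired analysis was possible because each condition has 1 array. No replicate could be left out for the same reason, and no alternative measures the spread between cultures.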

Other observations

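Of 7 genes of the MYC network above the floor, 6 read lower with OX40L-Tg APC, with a median of -0.12. Over all genes above the floor, 54.0% read higher. The 3 that reached 1.2-fold downward in the MYC network, where 12.4% of all genes above the floor did, were antagonists of MYC. Of these, Mxd1 read 126 units with OX40L-Tg APC and 225 units with Wt APC. Mxd4 and Mxi1 differed by -0.46 and -0.32. Myc itself, named after its value was seen, read 1631 units with OX40L-Tg APC and 1772 units with Wt APC, a difference of -0.12.

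Of 10 glycolysis genes above the floor, 4 were higher with OX40L-Tg APC, where 54.0% of all genes above the floor were. The median was -0.05. Hk2, a hexokinase, differed by 0.46, Pfkp, a phosphofructokinase, by -0.22, and Aldoc, an aldolase, by -0.71.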
